A study of Mus musculus with 6 samples.

Results

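The heat shock protein 70 (Hsp70) chaperones of mouse spinal cord were followed on 6 oligonucleotide arrays covering 3 genotypes at 2 ages. The 5 genes are the stress-inducible pair Hspa1a and Hspa1b, the constitutive Hspa8, the exchange factor gene Hspa4 and the mitochondrial Hspa9. A row belonged to them when the platform annotation gave it exactly 1 gene symbol and that symbol was one of the 5. The rule found the 5 genes among 8251 named ones, with 9 of the 12422 probe sets: 1 each for Hspa1a, Hspa1b, Hspa8 and Hspa9, and 5 for Hspa4. The genes were chosen by their measured values on these same arrays, among them the low Hspa1b reading of G93A-SOD1 cord at 110 days and its change between ages. Their values are therefore a description, with no p-value.

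The nontransgenic mice were B6SJL animals without a transgene. The WT-SOD1 mice carried a wild-type SOD1 transgene and the G93A-SOD1 mice a transgene for the G93A form of this superoxide dismutase, which is known from familial amyotrophic lateral sclerosis. The strain label of the WT-SOD1 mice names B6SJL at 75 days, and the array at 110 days has no strain label. The G93A-SOD1 strain reads B6SJL-G93A-SOD1 at 75 days and B6SJL-G93A-SOD1H at 110 days. The submitters describe G93A-SOD1 mice as presymptomatic at 75 days and as showing tremor and partial paralysis at 110 days, and WT-SOD1 mice as without disease. Arrays of nontransgenic and of WT-SOD1 cord are together called disease-free. Each array held RNA of 4 spinal cords and was hybridised once, with 1 array per genotype and age, and no group has replicates. The transgenes' promoters and the sex of the mice are not given in the sources used here.

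Hsp70 proteins bind unfolded stretches of other proteins and release them on exchange of ADP for ATP. J-domain cochaperones deliver the substrate, and exchange factors, the family of Hspa4 among them, complete the cycle. Hspa8 encodes the abundant constitutive form (Hsc70), Hspa9 encodes mortalin, which pulls proteins into mitochondria, and Hspa1a and Hspa1b are switched on by heat shock factors when proteins misfold. Motor neurons are known for a high threshold for inducing this response, and misfolded SOD1 is a known Hsp70 client.

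The promoters of the inducible pair are shown because both genes varied together over the arrays. RefSeq sequences of GRCm38.p6 were available for 3 of the 5 genes (Hspa1a, Hspa1b and Hspa4), and the others are Hspa8 and Hspa9. The windows are the 250 bases before the start on the minus strand, chr17:34972157-34972406 for Hspa1a and chr17:34959239-34959488 for Hspa1b, written 5′ to 3′. Capitals mark a match to GAANNTTC, an inverted repeat of the 3-base unit that heat shock factors are known to recognise.
Hspa1a: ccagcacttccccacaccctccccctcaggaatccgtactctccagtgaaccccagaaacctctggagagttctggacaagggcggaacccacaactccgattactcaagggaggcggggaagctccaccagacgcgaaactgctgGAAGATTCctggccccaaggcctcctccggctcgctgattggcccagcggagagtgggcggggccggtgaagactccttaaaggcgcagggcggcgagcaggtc
Hspa1b: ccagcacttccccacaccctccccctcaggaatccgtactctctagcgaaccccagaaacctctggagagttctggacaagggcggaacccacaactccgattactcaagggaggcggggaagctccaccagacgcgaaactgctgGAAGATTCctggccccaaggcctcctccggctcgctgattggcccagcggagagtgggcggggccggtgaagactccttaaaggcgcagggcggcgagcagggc
The windows were identical at 247 of 250 positions (98.8%). Counted from 1 at the left end, with the base of Hspa1a first, the differences were C44T, T47C and T249G. Each window held 1 match, GAAGATTC, from 104 to 97 bases before the start, and none to TTCNNGAA. The Hspa4 window held neither motif. Both motifs read the same on either strand, and 6.69% of 32851 promoter windows of this length held GAANNTTC, 7.17% TTCNNGAA and 12.8% either. Counted by window, as these shares are, 11 of the 61 windows of 47 chaperone partner genes (18.0%) had a match to either, several genes having more than 1 start. A match is only a match of letters. How far each probe set tells the near-identical transcripts of Hspa1a and Hspa1b apart is not stated in the labels or files, so the assignment of their signals to 1 gene or the other is uncertain.

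The arrays had median intensities of 77.7 to 80.9, and values under 31 were raised to this floor before taking log2. Bacterial spike-in controls averaged 1198 on the 75-day nontransgenic array and 1590 on that of WT-SOD1 at 110 days, against 645 to 850 elsewhere. Each disease-free pair of an age thus held 1 array of each kind. The 3′ to 5′ signal ratio of the Actb controls, a sign of RNA integrity, was 2.39 on the nontransgenic 110-day array and lower on the others, down to 1.69. That of Gapdh was highest on the G93A-SOD1 arrays, at 1.49 and 1.30 for 75 and 110 days against 1.08 to 1.27 on the disease-free ones, and so was the 18S ribosomal control, at 273 and 342 against 113 to 228. The part of these in the Hsp70 values was not tested. Sod1 read 1037 and 1498 on the nontransgenic arrays at 75 and 110 days and 1583 to 1906 on the 4 transgenic ones, on a mouse probe set whose response to the transgene is not given. Markers of nervous tissue were present: none of 8 neuron and 7 oligodendrocyte genes lay at the floor on all arrays. The oligodendrocyte gene Cnp was at or just above it, at 28.3 to 31.7.

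Hspa1b gave the widest spread of the 5 genes. Its intensity was 64.7 in nontransgenic and 54.4 in WT-SOD1 cord at 75 days, and 282 and 252 at 110 days. In G93A-SOD1 cord it was 137 at 75 days and 56.4 at 110 days. The order thus ran from WT-SOD1 at 75 days over G93A-SOD1 at 110 days and nontransgenic at 75 days to G93A-SOD1 at 75 days, with both disease-free 110-day arrays on top. The 3 lowest arrays were separated by no more than the 2 disease-free 75-day arrays were from each other. The low G93A-SOD1 reading at 110 days lay between the 2 disease-free readings of 75 days, while its age controls were the highest of all.

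In log2 terms, Hspa1b was 2.13 higher at 110 than at 75 days in nontransgenic cord (4.37-fold) and 2.21 higher in WT-SOD1 cord (4.64-fold). In G93A-SOD1 cord the log2 difference between ages was -1.28, a lower level at 110 days. Against the mean of the disease-free pair, G93A-SOD1 stood at 1.20 at 75 days (2.30-fold higher) and at -2.24 at 110 days (4.73-fold lower). The pair itself differed by 0.25 at 75 days and 0.16 at 110 days, WT-SOD1 being lower both times. For scale, WT-SOD1 and nontransgenic arrays of 1 age differed by a median of 0.09 at 75 days and 0.17 at 110 days over the 6737 tested probe sets, and 95% of these differences were under 0.31 and 0.52. The Hspa1b differences between G93A-SOD1 and its controls exceeded these values at both ages. With only the 4 arrays of lower spike-in level, where the WT-SOD1 75-day and nontransgenic 110-day arrays form 1 control group, they were 0.14 at 75 days and -1.14 at 110 days. That group averages controls of both ages, with Hspa1b intensities of 54.4 and 282. The arrays left out also had the highest summed cerebellar markers (given below). Spike-in level, control age and cerebellar signal therefore cannot be told apart in these values.

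Hspa1a had its 3 lowest and 3 highest readings on the same arrays as Hspa1b, with a smaller span. It read 121 and 127 on the nontransgenic and WT-SOD1 arrays at 75 days, and 293 and 222 at 110 days. The G93A-SOD1 arrays read 199 at 75 days and 136 at 110 days. The later G93A-SOD1 array was again next to the 75-day controls, and the earlier one lay between the 75-day and 110-day controls. The log2 difference of G93A-SOD1 from the disease-free pair was 0.68 at 75 days and -0.91 at 110 days. With the 4 arrays of lower spike-in level, whose control group mixes both ages, it was 0.04 and -0.51. The pair differed by 0.08 at 75 days, but by 0.40 at 110 days, with nontransgenic above WT-SOD1. The highest array exceeded the lowest 2.42-fold for Hspa1a and 5.19-fold for Hspa1b.

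**Figure D1:**
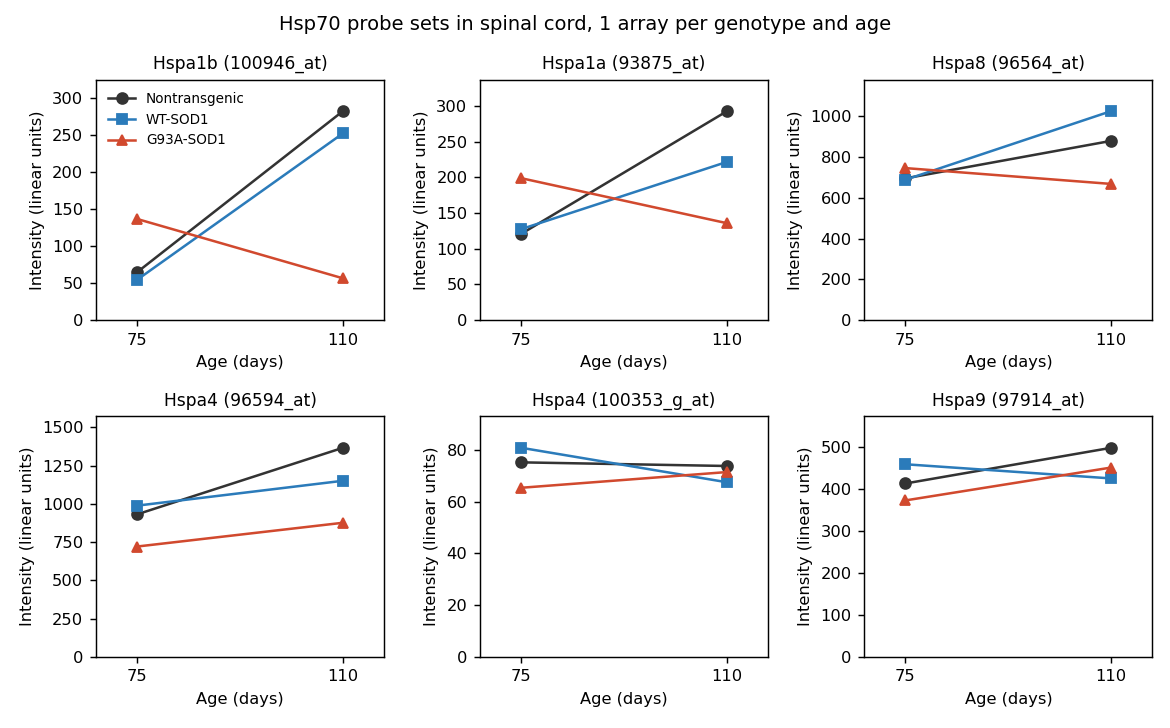
Intensity (linear units, axis from 0) of the 6 Hsp70 probe sets that passed the filter, against age in days, with 1 point per array and a line joining the 2 arrays of a genotype. For Hspa1b, Hspa1a and Hspa8 both disease-free lines end higher at 110 than at 75 days and the G93A-SOD1 line ends lower, for Hspa1b at 56.4 after 137.

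Hspa8, the constitutive form, shared the direction at a fraction of the size. It read 695 in nontransgenic, 688 in WT-SOD1 and 745 in G93A-SOD1 cord at 75 days. At 110 days the values were 879, 1025 and 668. The 3 arrays at 75 days and the later G93A-SOD1 array lay close together, and the disease-free 110-day arrays stood above them. The log2 difference from the disease-free pair was 0.11 at 75 days and -0.51 at 110 days. With only the 4 arrays of lower spike-in level, whose control group mixes both ages, it was -0.06 and -0.22. The 110-day value of all 6 arrays was just under the 0.52 that covers 95% of disease-free pair differences at that age.

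Hspa4, encoding an Hsp110-type exchange factor for Hsp70, was lower in G93A-SOD1 cord at both ages on its brightest probe set. This read 931, 988 and 721 in nontransgenic, WT-SOD1 and G93A-SOD1 cord at 75 days, and 1366, 1151 and 876 at 110 days. Here the G93A-SOD1 arrays were the 2 lowest of the 6, and G93A-SOD1 was higher at the later age (log2 difference 0.28), as were nontransgenic (0.55) and WT-SOD1 cord (0.22). The log2 differences from the disease-free pair were -0.41 and -0.52 at 75 and 110 days. The change between them, -0.10, was 0.02 without the nontransgenic 110-day array. The other 4 probe sets of Hspa4 did not repeat this pattern. The second brightest, a set marked as sharing probes with others, passed the filter through the WT-SOD1 75-day array alone and read 65.3 to 80.8, with G93A-SOD1 lowest at 75 days but between its controls at 110 days. A dimmer one read 34.2 to 40.1, and the other two lay under the floor on all 6 arrays, at 18.9 to 22.1 and 23.3 to 30.7, so these 3 did not pass the filter.

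Hspa9, the mitochondrial form, varied least among the brightest probe sets of the 5 genes. It read 413, 459 and 372 in nontransgenic, WT-SOD1 and G93A-SOD1 cord at 75 days, and 498, 425 and 451 at 110 days. The G93A-SOD1 value lay below both controls at 75 days (log2 difference -0.22) and between them at 110 days (-0.03, turning positive against the WT-SOD1 array alone). The log2 difference between ages was 0.27 in nontransgenic and -0.11 in WT-SOD1 cord. No neighbours in the order of the 6 arrays differed by more than the controls of 1 age did.

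**Figure D2:**
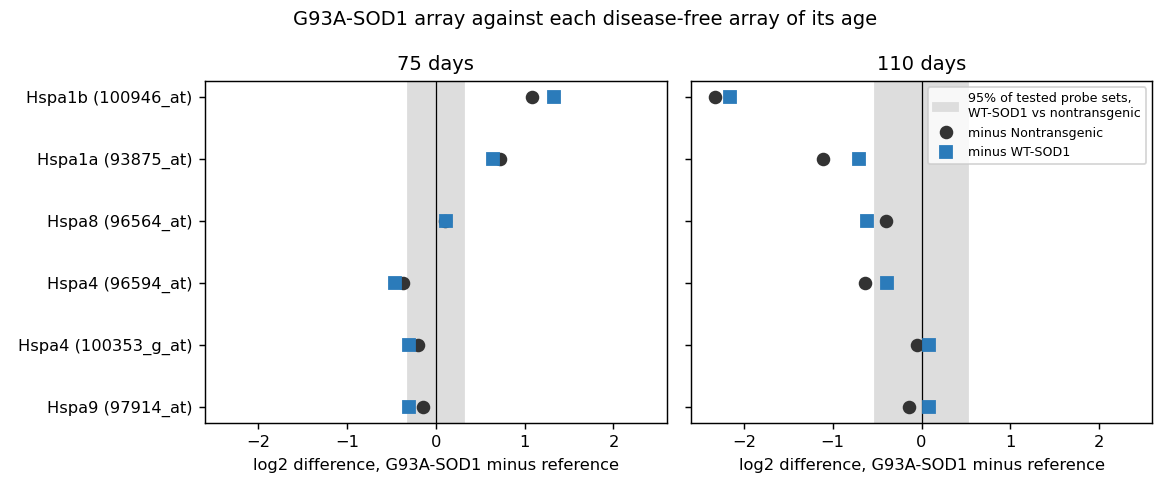
Log2 difference of the G93A-SOD1 array from the nontransgenic (circles) and the WT-SOD1 array (squares) of the same age, for the 6 probe sets that passed the filter. The grey band spans the size under which 95% of tested probe sets differed between the WT-SOD1 and nontransgenic arrays (0.31 at 75 days, 0.52 at 110 days), and Hspa1b lies outside it on opposite sides at the 2 ages.

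Across the 6 Hsp70 probe sets that passed the filter, 4 lay below both disease-free arrays at 110 days (Hspa1a, Hspa1b, Hspa8 and the brightest of Hspa4), a position that 35.3% of all tested probe sets held. At 75 days all 6 lay outside the disease-free pair, 3 above and 3 below, as did 79.0% of all tested probe sets. Hspa1b, Hspa1a and Hspa8 were higher at 110 than at 75 days in both disease-free genotypes and lower in G93A-SOD1 cord. This pattern, at any size, was held by 6.99% of tested probe sets. At least 2-fold higher levels at 110 days in both disease-free genotypes were held by 0.0297% of tested probe sets, which is 2 of 6737: those of Hspa1b and of Zbtb16, a zinc finger transcription factor gene.

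A fit across all 6737 tested probe sets (limma, Benjamini-Hochberg adjusted p under 0.05) placed these values on a common scale. The contrasts were in view when the 5 genes were chosen, so nothing is read from their calls. At 110 days 1 of the 6 Hsp70 probe sets was called, Hspa1b, lower in G93A-SOD1 cord, where 1.51% of all tested probe sets were called in either direction and 0.134% lower. At 75 days 0 of the 6 was called and 0% of all, while 664 of the 6737 had an unadjusted p under 0.05. For the change of the G93A-SOD1 difference from 75 to 110 days, Hspa1b was again the 1 called, with -3.45 on the log2 scale, against 0.416% of all called in either direction and 0.0297% with a lower difference at 110 days. The spread in this fit comes from pairs of arrays of different genotype, so it measures neither animals of 1 group nor repeat hybridisations. Neither call was made with no filter, a fit that took in probe sets at the floor on all arrays. There the spread shared across probe sets was 0.0055 log2 units, against 0.124 with the filter, so the 2 fits are not alike. The 110-day call was not made with the 4 arrays of lower spike-in level, whose control group mixes both ages. Lower calls at 110 days over all probe sets were 9 in the fit of 6 arrays, but 392 without the WT-SOD1 110-day array, where 199 were higher.

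The genes that work with Hsp70 were read next, from lists chosen with earlier results of these arrays known. The lists held 61 symbols of cochaperones, exchange factors, other Hsp70 genes, heat shock factors, partner chaperones and import partners. Of these, 48 had a named probe set and 37 passed the filter. None of the 37 was called at 110 days, at 75 days or for the change between ages (limma). An unadjusted p under 0.05 was held by 10, 4 and 5 of the 37, beside 10.3%, 9.86% and 6.23% of all tested probe sets (693, 664 and 420). At 110 days and for the change, the partner counts are larger parts of 37 than these shares. The lists were chosen with results known and count 1 probe set per gene, so nothing is read from this. Their median log2 difference between G93A-SOD1 and disease-free cord was -0.17 at 110 days and -0.06 at 75 days, beside -0.02 and -0.04 over all tested probe sets. Calls at 110 days appeared when a 110-day control was left out. Without the WT-SOD1 one, 6 were lower (Hspa4l, Hsph1, Dnajb1, Hspa5, Tomm70a and Chordc1), as were 5.82% of all tested probe sets, and without the nontransgenic one, 3 were lower (Hspa5, Dnajb1 and Hspa4l), as were 0.623% of all.

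Between ages, the partner list stood at a median log2 difference of 0.23 in nontransgenic, 0.10 in WT-SOD1 and 0.04 in G93A-SOD1 cord, beside 0.02, -0.01 and 0.01 over all tested probe sets. The 3 values share no array. Of the 37 partners, 8 (21.6%, beside 6.99% of all tested) had the direction of Hspa1b in all 3 genotypes, at any size. They were Hspa4l, Hsph1, Dnajb1, Dnajc7, Stip1, Chordc1, Hsp90b1 and Cryab. Some values were near 0. Dnajc7 stood at 0.03 in WT-SOD1 and -0.03 in G93A-SOD1 cord, and Hspa4l and Cryab at -0.05 and -0.07 in G93A-SOD1 cord.

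Among other Hsp70 genes, Hspa5, the chaperone of the endoplasmic reticulum, read 349 and 333 on the nontransgenic and WT-SOD1 arrays at 75 days and 573 and 666 at 110 days. The G93A-SOD1 arrays read 327 and 366. The log2 difference was -0.06 at 75 days and -0.76 at 110 days (adjusted p = 0.0745). Hsph1, an Hsp110 gene, read 839 and 871 at 75 days and 1318 and 1064 at 110 days in the controls, and 885 and 778 in G93A-SOD1 cord. Its differences were 0.05 and -0.61 (adjusted p = 0.204 at 110 days). Both genes thus had their highest 2 readings on the disease-free 110-day arrays, as Hspa1a, Hspa1b and Hspa8 did. Hspa4l, a relative of Hspa4, was like Hspa4 lowest on the 2 G93A-SOD1 arrays, at 224 and 217 against 309 to 383, with differences of -0.47 and -0.71 (adjusted p = 0.493 and 0.0858).

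Among J-domain cochaperones, Dnajb1, a stress-inducible partner of Hsp70, had its highest 2 readings on the same arrays as the inducible pair. It read 124 and 122 in the controls at 75 days and 189 and 176 at 110 days, and 138 and 115 in G93A-SOD1 cord. Its change of the difference between ages was -0.82 (adjusted p = 0.255), the largest in size of the 12 tested J-domain genes. Dnaja1 differed by -0.17 and -0.33 at 75 and 110 days. Dnajc5, the cysteine string protein of synaptic vesicles, differed by -0.43 at both ages, Dnajb9 by -0.43 at 75 days, and for Dnajb2 the difference moved by -0.35 between ages. None of these passed the test.

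Of exchange factors and regulators, Chordc1 and Stip1, which link Hsp70 and Hsp90 work, differed by -0.56 and -0.41 at 110 days (adjusted p = 0.13 and 0.318) and by -0.06 each at 75 days. Hspbp1 and Grpel1, the latter the exchange factor of mitochondrial Hsp70, differed by -0.24 and -0.16 at 75 days. Of the partner chaperones, Hsp90aa1 differed by -0.43 and the small heat shock protein gene Hspb8 by 0.39 at 110 days. Cryab and Hsp90b1 differed by 0.48 and 0.24 at 75 days, and between ages the difference moved by -0.60 for Hsp90b1 and by -0.35 for the mitochondrial co-chaperonin gene Hspe1. Of the import partners of Hspa9, Tomm70a differed by -0.49 at 75 days and -0.30 at 110 days. Tomm20 stood at 0.19 at 110 days and Timm17a at -0.27 at 75 days, and the difference moved by -0.34 for Tomm40 and -0.23 for Timm44. None of these import genes passed the test. The heat shock factor gene Hsf2 lay under the floor on all arrays, at 15.1 to 19.8. Hsf4 read 42.1 to 58.0 and did not pass the filter. Hsf1 had no probe set annotated with that symbol alone.

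**Figure D3:**
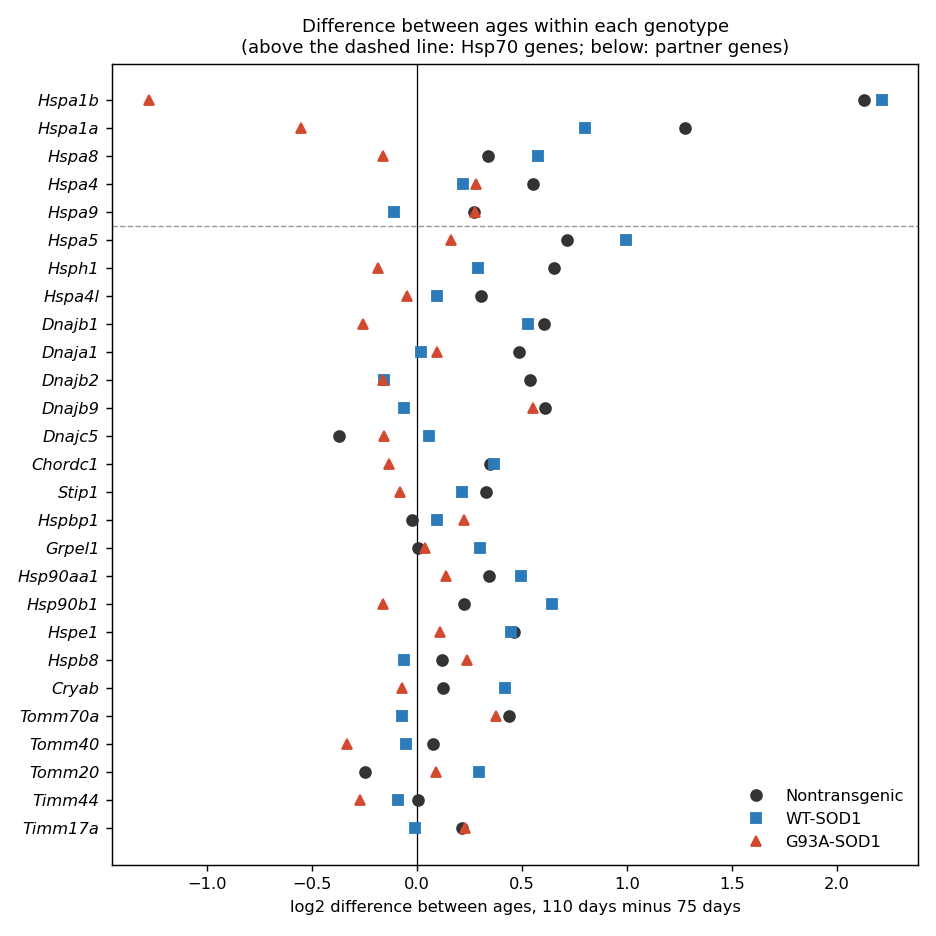
Log2 difference between 110 and 75 days within nontransgenic (circles), WT-SOD1 (squares) and G93A-SOD1 cord (triangles), 1 array per age, for the brightest probe set of each Hsp70 gene and of selected partners. For Hspa1b, Hspa1a, Hspa8, Hspa4l, Hsph1, Dnajb1, Chordc1, Stip1, Hsp90b1 and Cryab both disease-free points lie right of 0 and the G93A-SOD1 point left of it.

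The genes most alike in pattern were taken by Pearson correlation of log2 level over the 6 arrays, a description over points that share depth, scaling and tissue. Of 245 named probe sets with a range of at least 1 log2 unit, those nearest to Hspa1b were Zbtb16 (r = 0.97), Hspa1a (0.96) and Hspa5 (0.84). Zbtb16 read 151 and 150 in the controls at 75 days, 314 and 361 at 110 days, and 233 and 173 in G93A-SOD1 cord. Of 1672 with a range of at least 0.5, those nearest to Hspa8 were Gjb6, encoding connexin 30 of astrocytes (r = 0.99), the glucose transporter gene Slc2a1 (0.97) and the helicase gene Dhx9 (0.96). With Hspa1b, Hspa8 itself correlated at 0.91, Hspa4 at 0.57 and Hspa9 at 0.11.

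The make-up of the cords differed on the same arrays. Summed over 9 microglia markers the intensity was 7995 in G93A-SOD1 cord at 110 days against 1807 to 2288 in disease-free cord. Of 6 astrocyte markers, Gfap (4442 against 1583 to 2206), Aqp4 (1309 against 496 to 765) and Slc1a2 lay above all disease-free arrays there, Aldoc and Glul within their range and S100b below it. Over 8 neuron markers it was 8009 against 9973 to 11552, and in bulk tissue fewer cells of a type and less RNA per cell cannot be told apart. Over 7 oligodendrocyte markers the G93A-SOD1 sums were 9752 at 75 and 9696 at 110 days, against 10213 to 11415 in disease-free cord. At 110 days 3 of these genes lay within the disease-free range. At 75 days the G93A-SOD1 sums were 2078 for microglia and 9197 for neuron markers. Gfap then read 2743, against 1617 and 1596 in nontransgenic and WT-SOD1 cord, while Aldoc and S100b lay below both. Of the 8 neuron genes, only 4 were then below the disease-free mean of that age, with a median log2 difference of -0.09. The 3 blood markers summed to 3617 and 3886 in nontransgenic and WT-SOD1 cord at 75 days and to 4802 and 4027 at 110 days. In G93A-SOD1 cord they summed to 5078 at 75 days, the highest of the 6 arrays, and to 3423 at 110 days, the lowest. The sum thus differed between ages in the same directions as Hspa1b in all 3 genotypes. Of the 3 blood markers, only Hba-a1 did so. Hbb-b2 and Alas2 were lower at 110 than at 75 days in WT-SOD1 cord. Cerebellar markers, 8 in number, summed to 5892 in nontransgenic cord at 75 days and 6252 in WT-SOD1 cord at 110 days. Their remaining controls stood at 4475 and 4565, and G93A-SOD1 cord at 3637 and 3278. The part of these differences in the Hsp70 values was not tested.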

How the data were processed

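Poly(A) RNA of 4 pooled spinal cords per array was labelled with biotin and hybridised once, per the labels' protocols. The authors deposited linear intensity values, 1 for each probe set on each array. Their summary and scaling method is not given in the sources used. Of 12488 rows, 66 control probe sets were left out of the tests. Array medians were close, so intensities were used as deposited. Values under the 25th percentile, 31, were set to 31 before the log2 step. Tests covered the 6737 probe sets whose highest array was above 79.7, the median over all arrays. Symbols came from the platform annotation, matched through Entrez identifiers for 10817 of 10833 probe sets, with 0 changes. The brightest probe set stands for a gene in lists.

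limma 3.58.1 in R 4.3.3 fitted 4 means (disease-free and G93A-SOD1 at each age) with 2 residual degrees of freedom and Benjamini-Hochberg adjustment at 0.05, and was checked on simulated data. Figures used matplotlib 3.10.9. SE and p-values rest on pairs of different genotype. The members, lists and tests were chosen with earlier results of these data known. Named were every probe set of the 5 genes and, per partner list and contrast, all calls or otherwise the 2 genes farthest from 0, with Hsf1, Hsf2, Hsph1, Dnaja1, Dnajb1 and Hspa5 in any case, and the 3 named genes most alike to Hspa1b and Hspa8. Alternatives covered the filter, the floor, scaling to 1 median, each disease-free array left out, the reference array, and the 4 arrays with lower spike-in levels.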

Additional observations from a re-analysis of the deposited data

Results flagged for a closer look

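The Hspa1b difference between G93A-SOD1 and disease-free cord changed with age: the log2 change from 75 to 110 days was -3.45. It is listed for passing the threshold for that change across all probe sets, but the value was among those that chose the gene, so the call supports nothing.

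For Hspa1a, Hspa8 and 1 probe set of Hspa4 the G93A-SOD1 arrays differed between ages in the direction opposite to both disease-free genotypes, and for single arrays this was not tested. The log2 difference between ages in G93A-SOD1 cord was -0.55 for Hspa1a, against 1.28 and 0.80 in nontransgenic and WT-SOD1 cord. It was -0.16 for Hspa8, against 0.34 and 0.57. For the second brightest probe set of Hspa4 it was 0.13, against -0.03 and -0.26, all at levels near the pooled median. That probe set passed the filter through its WT-SOD1 75-day reading alone, on which the WT-SOD1 difference rests.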

How the results depend on the processing

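With 1 array per genotype and age, every count of calls depends on few pairs of arrays. The fit with no filter took in probe sets at the floor on all arrays. Its spread shared across probe sets was 0.0055 log2 units, against 0.124 with the filter. Counts with no filter are therefore not comparable with the others. Over all probe sets, the 102 calls at 110 days were 42 with no filter, 64 when filtering on mean level, 66 with the higher floor and 148 to 591 with 1 disease-free array left out, most without the WT-SOD1 110-day array. Of these calls, 9 were lower with 6 arrays, 1 with no filter or the higher floor, 37 without either 75-day control, 392 when the WT-SOD1 array of 110 days was left out and 42 when its nontransgenic partner was. The 0 calls at 75 days became 50 with no filter and 13 to 116 with 1 array left out. The 28 calls for the change between ages became 76 with no filter (41 of them lower, against 2 of the 28), 11 when filtering on mean level, 3 with the higher floor, 2 with arrays scaled to 1 median (1 of them lower) and 51 to 135 with 1 array left out. Without the nontransgenic or the WT-SOD1 110-day array, the calls at 110 days were 194 and 591 and those for the change 135 and 85. The cause was not tested. The 4 arrays of lower spike-in level give no value for this change, since 1 control group serves both ages and cancels. The Hspa1b differences ranged from -2.32 to -1.14 at 110 days and from 0.14 to 1.33 at 75 days, the values nearest 0 coming from the 4 arrays of lower spike-in level. Their control group averages a 75-day and a 110-day array, and the arrays left out had the highest summed cerebellar markers. Spike-in level, control age and cerebellar signal thus cannot be told apart. The next counts leave out Hspa1b and the 2 Hspa4 probe sets under the floor. Of the Hsp70 values, 148 moved by no more than the disease-free pair's SD or 0.1, and 6 moved by more. Of the partner list medians, 25 stayed within this and 1 did not. For the Hsp70 values this tally was largely set in advance. A change of filter alters no difference, and leaving out 1 array of a pair moves it by less than that SD. All values that moved by more came from the 4 arrays of lower spike-in level. The tally therefore says little about stability. The 5 genes were chosen by their values on these arrays, so whether a setting called them is not read. With 1 disease-free array left out, Hspa1a differed by -1.11 to -0.71 at 110 days and by 0.64 to 0.72 at 75 days. The change of its difference between ages was -1.79 to -1.39. Hspa1b then differed by 1.08 to 1.33 at 75 days. At 110 days Hspa8 differed by -0.62 to -0.40 and the brightest Hspa4 probe set by -0.64 to -0.39. The fits that leave out an array assume that its lone partner varies like the remaining pair. No paired analysis was possible because the labels give no replicate numbers. Signal near the floor hides the dim probe sets of Hspa4.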

Other observations

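Hspa1l, an Hsp70 gene next to Hspa1a that is known from testis, was chosen after its values were seen. It did not pass the filter and read 55.2 to 59.9 on the 4 disease-free arrays and on the G93A-SOD1 array at 110 days, but 79.2 on the G93A-SOD1 array at 75 days. Of 11 immediate early genes on the array, which respond within minutes to stimulation of a cell, 9 passed the filter and none was called at 110 days, at 75 days or for the change (limma). An unadjusted p under 0.05 was held by 0, 2 and 1 of the 9, beside 10.3%, 9.86% and 6.23% of all tested probe sets. Their median log2 difference between 110 and 75 days was -0.03 in nontransgenic, -0.03 in WT-SOD1 and 0.15 in G93A-SOD1 cord. Dnajb11, a cochaperone of Hspa5 also chosen after its values were seen and under the filter, read 63.8 and 70.3 on the disease-free 110-day arrays against 40.3 to 51.4 on the other 4.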
